A study of Homo sapiens with 5 samples.

Results

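Interferon-stimulated genes are the genes that a cell switches on when it detects interferon or viral nucleic acid. The set examined here, called interferon-stimulated genes below, holds 45 genes that act in this response. They are effectors, nucleic acid sensors, ubiquitin-like modifiers and interferon regulatory factors, picked by gene symbol from a table of 25343 genes. All 45 symbols were found in the table. RNA was measured in SW620, an established human colon carcinoma line, and every library carried a short hairpin RNA (shRNA) against the mucin gene MUC1, switched by a tetracycline-responsive promoter. Libraries named neg number 3 (replicates 1, 2 and 3), and those named pos number 2 (replicates 1 and 3). Per the labels, cells were given doxycycline or its vehicle. They do not state whether pos means doxycycline, so both names are kept as deposited. Every library carried the same inducible construct, and no library with a control shRNA was analysed here. An effect of the drug and an effect of the hairpin cannot be told apart.

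Interferons bind receptors on the cell surface, and the kinases JAK1 and TYK2 then phosphorylate transcription factors such as STAT2. With IRF9 these form a complex that binds the interferon-stimulated response element (ISRE) in target promoters. The gamma-activated site (GAS) is another element of interferon-responsive promoters. The induced proteins degrade, edit or sequester foreign RNA, block viral entry and release, and feed back on the pathway. Epithelial tumour cells often keep a low level of these genes without added interferon.

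The libraries held 10888704 to 14137678 reads in genes. Genes with reads numbered 16853, 17054 and 16832 in neg replicates 1, 2 and 3, and 14452 and 15530 in pos replicates 1 and 3. Values are given as CPM (reads scaled to a common library total), adjusted by trimmed mean of M-values (TMM) factors. The factors were 1.09, 1.13 and 1.14 in neg replicates 1, 2 and 3, and 1.01 and 0.705 in pos replicates 1 and 3. A lower factor raises every CPM of its library. MUC1, the target of the hairpin, had 176, 252 and 218 reads in neg replicates 1, 2 and 3, and 27 and 13 in pos replicates 1 and 3. The pos libraries differed from each other (Pearson r of log2 CPM across genes 0.913) more than neg pairs did (0.983 to 0.993). In pos replicate 3, levels relative to neg followed transcript length, with short transcripts high and long ones low. The rank correlation between length and the log2 ratio to the neg mean was -0.66 over 13258 tested genes with a known length, against -0.31 in pos replicate 1. Summed levels of 8 epithelial markers were 6066 to 7892 CPM in neg and 7909 and 16431 CPM in pos. Most of each sum came from the keratins KRT8, KRT18 and KRT19 (1390 to 1784 nt), and LGALS4 had at most 10 reads in any library. Among the epithelial markers CDX2 rose (log2 fold change 2.18, edgeR adjusted p = 0.0337) and the cell adhesion gene CDH1 fell (-1.68, edgeR adjusted p = 0.0434). Summed leukocyte markers were 7.96 to 9.37 CPM in neg and 11.7 and 16.4 CPM in pos, and fibroblast markers 25.2 to 29.1 CPM in neg and 18.7 and 13.5 CPM in pos. Of these PTPRC, CD3E and COL3A1 had 0 reads in every library, while LYZ rose (1.27, edgeR adjusted p = 0.0386), COL1A1 fell (-1.36, edgeR adjusted p = 0.0340), and CSF1R, LUM and PDGFRB had reads. The part of these markers in the results was not tested.

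Of the 45 genes, 36 had enough reads to be tested. The test was edgeR's quasi-likelihood test of pos against neg, with Benjamini-Hochberg adjustment over all 13604 tested genes and a threshold of 0.05. In it 3 of the 36 passed: TRIM21 was higher in pos, and TRIM25 and GBP2 were lower. Over all tested genes 9.20% passed, 5.06% higher and 4.13% lower, so the share among the interferon-stimulated genes was near the background. Their median log2 fold change was -0.40, against -0.05 over all tested genes. The fitted value was above 0 for 13 and below 0 for 23, and 14 (38.9%) had an unadjusted p under 0.05. Over all tested genes 6530 were above 0, 7074 below, and 34.6% had an unadjusted p under 0.05. Leaving out neg replicate 1, 2 or 3 in turn left 0 of all tested genes past the threshold, with 3033, 2510 and 2607 at an unadjusted p under 0.05 (9 of 36, 7 of 35 and 7 of 35 interferon-stimulated genes fitted). When only library totals were used for scaling, the median of all tested genes moved to -0.41 and the split of calls was 0 higher and 2 lower, against 148 and 458 over all genes. In bulk RNA, fewer cells of a kind and less RNA per cell cannot be told apart. The labels mention culture in triplicate but do not say that each library is a culture of its own, so p-values measure the spread between these libraries, which may be technical.

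TRIM25, a ubiquitin ligase known for activating the RNA sensor RIG-I, fell 3.31-fold. Its level was 229, 211 and 205 CPM in neg replicates 1, 2 and 3, and 69.1 and 60.8 CPM in pos replicates 1 and 3. Both pos libraries were far below every neg library, and the 95% intervals from exact Poisson limits reached 73.9 CPM at most in pos and began at 197 CPM in neg. These intervals describe counting error alone. The log2 fold change was -1.73 (SE 0.19, edgeR adjusted p = 0.0270). It was -1.66 without pos replicate 3 and -1.77 without pos replicate 1, each from a lone pos library. Without neg replicate 1, 2 or 3 it was -1.68, -1.74 and -1.76, and the edgeR adjusted p rose to 0.178, 0.217 and 0.212. After each library's trend on transcript length was removed it was -1.16 (SE 0.21, edgeR adjusted p = 0.0232). GENCODE 44 (GRCh38) places TRIM25 on the minus strand of chromosome 17, between 56836387 and 56914080. Its span overlaps DGKE on the opposite strand, which had 87 to 219 reads per library against 577 to 3355 for TRIM25, and C17orf67 on its own strand, with 10 to 26 reads.

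TRIM21, a cytosolic antibody receptor and ubiquitin ligase, rose 1.93-fold. It had 18.7, 19.5 and 19.0 CPM in neg replicates 1, 2 and 3, and 36.1 and 37.5 CPM in pos replicates 1 and 3. The libraries of each group lay close together, and the groups did not overlap. The log2 fold change was 0.95 (SE 0.18, edgeR adjusted p = 0.0402), at 0.89 without pos replicate 3 and 1.02 without pos replicate 1. Its edgeR adjusted p was 0.180 without neg replicate 1, 0.225 without neg replicate 2 and 0.217 without neg replicate 3. Removal of the length trend gave 0.59 (edgeR adjusted p = 0.0768) and scaling by library totals alone 0.56 (edgeR adjusted p = 0.172), neither past the threshold. Its place in GENCODE 44 (GRCh38) is the minus strand of chromosome 11, between 4384897 and 4393702.

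GBP2, a guanylate-binding GTPase that acts against intracellular pathogens, fell 2.77-fold from a low level. It had 6.01, 5.15 and 6.27 CPM in neg (86, 82 and 78 reads) and 1.78 and 2.42 CPM in pos (22 and 23 reads). The highest pos library was below the lowest neg library, also by the Poisson intervals (3.64 CPM at most in pos, 4.10 at least in neg). The log2 fold change was -1.47 (SE 0.30, edgeR adjusted p = 0.0445). It was -1.72 without pos replicate 3 and -1.21 without pos replicate 1. Its edgeR adjusted p was 0.180 when neg replicate 1 was left out, and 0.217 for each of the other neg libraries. Removal of the length trend gave -1.18, which did not pass (edgeR adjusted p = 0.0630). GBP2 spans 89106132 to 89150456 on the minus strand of chromosome 1 (GRCh38, GENCODE 44), and its span overlaps GBP7, which had at most 6 reads in any library.

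**Figure D1:**
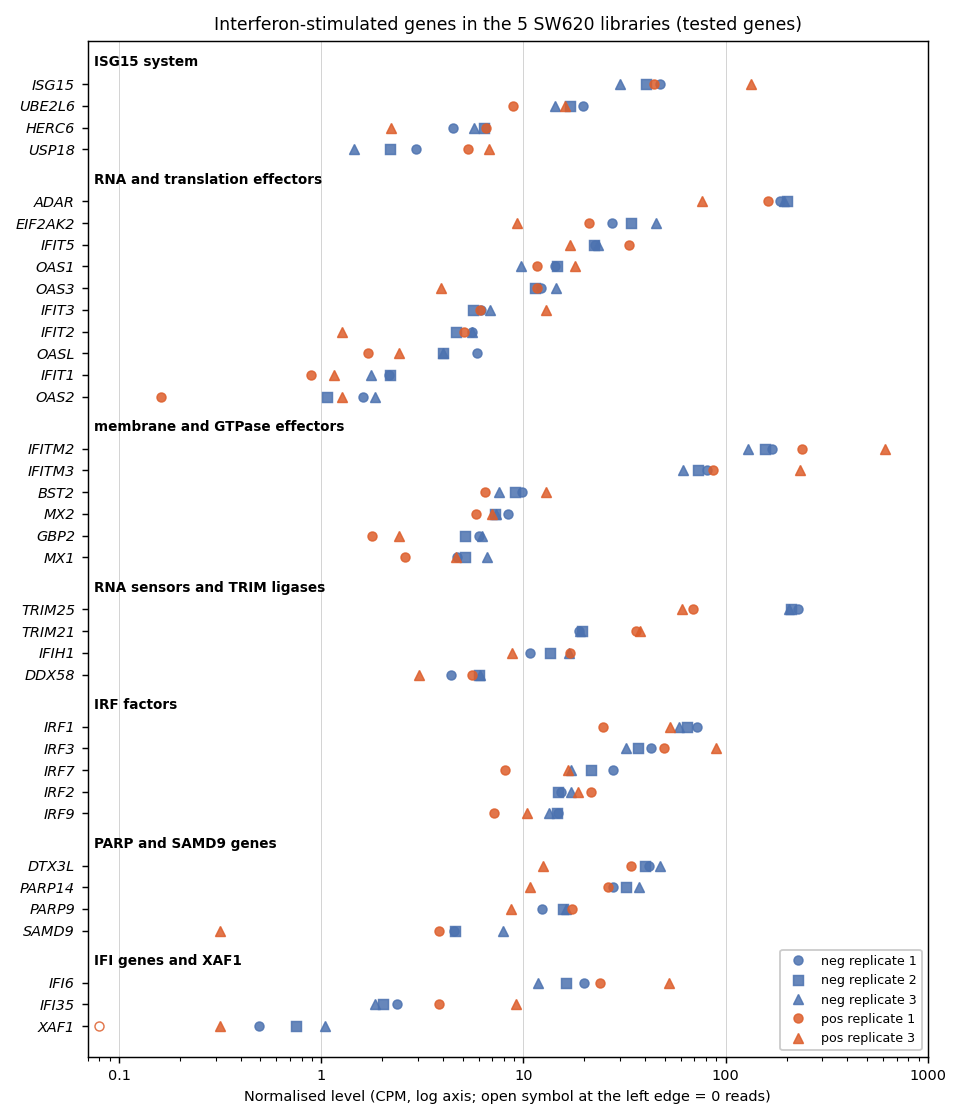
Normalised level (CPM, log axis) of the 36 tested interferon-stimulated genes in each library, grouped by role. Blue symbols are the 3 neg libraries and orange the 2 pos libraries, and the symbol shape gives the replicate number. TRIM25 (60.8 and 69.1 CPM in pos against 205 to 229 in neg), GBP2 and TRIM21 are separated in both pos libraries, while for ISG15, IFITM3 and IFI6 it is mainly pos replicate 3 that lies to the right.

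The promoters of these genes were examined for the 2 interferon response motifs, since the list was made by name and not by sequence. RefSeq promoters (GRCh38.p14, 250 bases before to 50 after the gene start) were on record for 34 of the 45. The other 11 were IFIT2, IFITM2, MX2, OAS2, OASL, IRF2, IRF3, IRF7, DHX58, GBP2 and USP18. The ISRE core, searched as GAAA, any 2 bases, then GAAA on either strand, was in 22 of 34 (64.7%), against 3.22% of 15545 promoters of genes in the table. The GAS core, TTCNNNGAA, which reads the same on both strands, was in 9 of 34 (26.5%) against 7.09%. In 5 promoters both were found and in 8 neither. A match describes the letters only and is not evidence of binding. Among tested genes with a promoter on record, the median log2 fold change was -0.09 for the 15 with an ISRE core and -0.46 for the 11 without, and 1 gene of each kind passed the test. The promoters of both TRIM genes that passed are shown with those of ISG15, the name-giving gene, and IRF9, a subunit of the ISRE-binding complex. Each runs 5′ to 3′ along its gene's strand, with ISRE and GAS cores in capitals.
TRIM21 (chr11:4393653-4393952, minus strand): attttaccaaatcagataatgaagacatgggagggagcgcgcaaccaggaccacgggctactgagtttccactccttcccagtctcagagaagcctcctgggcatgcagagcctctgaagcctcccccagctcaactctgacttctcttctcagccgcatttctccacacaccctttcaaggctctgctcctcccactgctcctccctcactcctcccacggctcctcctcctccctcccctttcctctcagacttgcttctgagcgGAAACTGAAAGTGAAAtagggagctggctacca
ISG15 (chr1:1013247-1013546, plus strand): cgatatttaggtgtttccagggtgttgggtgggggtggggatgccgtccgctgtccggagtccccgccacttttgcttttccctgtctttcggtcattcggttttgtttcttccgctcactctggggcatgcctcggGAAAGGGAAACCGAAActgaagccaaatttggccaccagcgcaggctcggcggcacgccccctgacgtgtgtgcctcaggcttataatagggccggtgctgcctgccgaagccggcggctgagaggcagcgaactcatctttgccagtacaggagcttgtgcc
TRIM25 (chr17:56914000-56914299, minus strand): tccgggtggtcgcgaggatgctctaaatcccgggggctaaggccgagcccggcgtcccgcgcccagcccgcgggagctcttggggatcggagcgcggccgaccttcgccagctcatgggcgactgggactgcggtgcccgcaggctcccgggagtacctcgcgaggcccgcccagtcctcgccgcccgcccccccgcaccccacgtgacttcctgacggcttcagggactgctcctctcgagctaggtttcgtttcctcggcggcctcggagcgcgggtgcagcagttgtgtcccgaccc
IRF9 (chr14:24161015-24161314, plus strand): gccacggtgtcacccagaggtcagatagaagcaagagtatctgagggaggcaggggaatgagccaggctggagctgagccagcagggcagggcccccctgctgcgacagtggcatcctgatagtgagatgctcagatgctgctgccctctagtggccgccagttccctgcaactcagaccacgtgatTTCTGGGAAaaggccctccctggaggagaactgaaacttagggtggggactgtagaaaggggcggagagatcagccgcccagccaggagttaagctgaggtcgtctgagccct

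Counting the gene start as 1 and the base before it as -1, the overlapping ISRE cores of TRIM21 covered positions 18 to 27 and 24 to 33, inside the transcribed part. Those of ISG15 covered -113 to -104 and -107 to -98. TRIM25 had no exact core, but held a match with 1 of the 8 fixed bases changed. At most 1 changed base was found in 29 of 34 promoters (85.3%) against 28.8% of all, and in 7 of the 29 there was no exact core. IRF9 had a GAS core from -63 to -55 and no ISRE core.

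**Figure D2:**
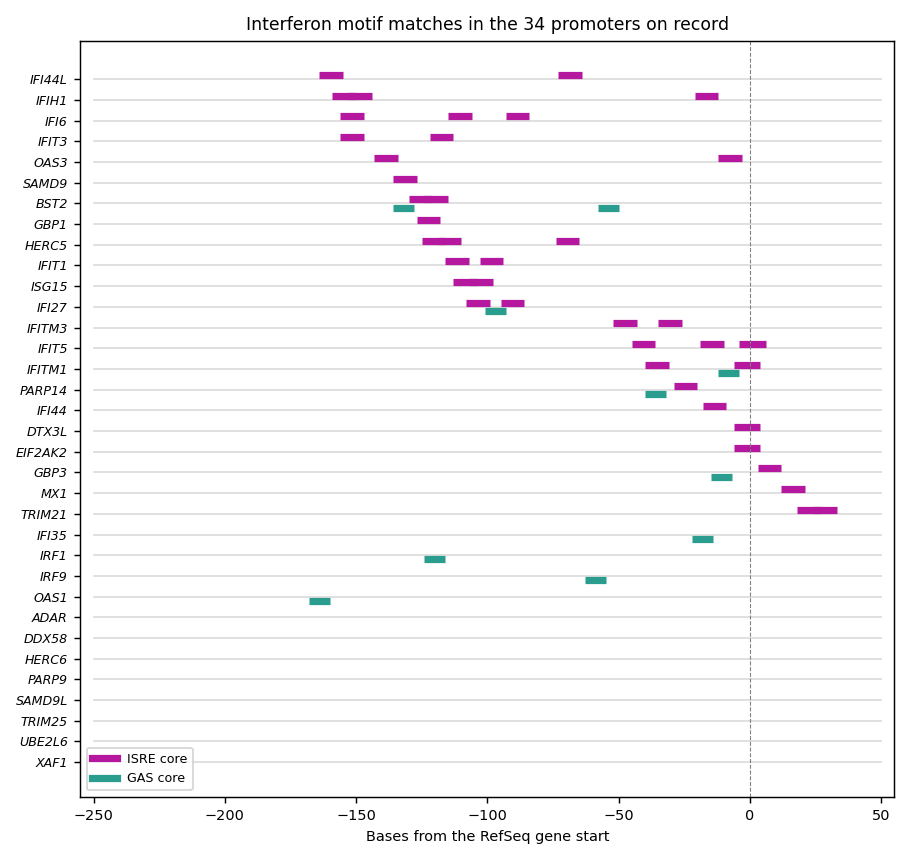
Positions of ISRE core (purple) and GAS core (green) matches in the 34 promoters, in bases from the RefSeq gene start (dashed line). Each grey line is 1 promoter window. ISRE cores are found in 22 promoters, mostly before the start, and those of GBP3, MX1 and TRIM21 lie wholly after it.

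The ISG15 system attaches the ubiquitin-like protein ISG15 to other proteins, through the conjugating enzyme UBE2L6 and ligases such as HERC5, and the protease USP18 removes it. ISG15 had 47.2, 40.4 and 30.1 CPM in neg replicates 1, 2 and 3, and 44.2 and 134 CPM in pos replicates 1 and 3. Pos replicate 1 lay within the neg range and pos replicate 3 well above it. Its log2 fold change of 1.18 (SE 0.47) did not pass (edgeR adjusted p = 0.138) and was -0.16 with the length trend removed. USP18, which also restrains signalling at the interferon receptor, had 2.94, 2.20 and 1.45 CPM in neg and 5.34 and 6.75 CPM in pos. Both pos libraries were above every neg library. Its log2 fold change of 1.45 (SE 0.37, edgeR adjusted p = 0.0584) missed the threshold in edgeR and passed in DESeq2 (adjusted p = 0.0239). UBE2L6 had 19.8, 17.0 and 14.3 CPM in neg and 8.90 and 16.0 in pos, so the groups overlapped. HERC6, a relative of HERC5, had 4.48 to 6.41 CPM in neg and 6.55 and 2.21 in pos.

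None of the 10 effectors that act on RNA and translation passed in edgeR, and their median log2 fold change was -0.70. EIF2AK2, the kinase PKR that shuts down translation when it binds double-stranded RNA, had 27.3, 34.0 and 45.5 CPM in neg and 21.1 and 9.28 CPM in pos. All neg libraries were above both pos libraries, yet the log2 fold change of -1.22 (SE 0.42) did not pass in edgeR (adjusted p = 0.103). DESeq2 called it lower (adjusted p = 0.0261), and after removal of the length trend the edgeR value was -0.44 (adjusted p = 0.140). ADAR, which edits adenosine in double-stranded RNA, had 187, 202 and 195 CPM in neg and 162 and 76.8 CPM in pos. Pos replicate 3 was by far the lowest library, and the log2 fold change of -0.70 (SE 0.33, edgeR adjusted p = 0.189) became -0.15 with the length trend removed.

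The IFIT proteins bind the ends of foreign RNA and block its translation. IFIT1 had 31, 35 and 22 reads in neg and 11 in each pos library (2.05 ± 0.241 CPM, SD, n = 3, against 1.02 ± 0.191, SD, n = 2). IFIT2, IFIT3 and IFIT5 each placed pos replicate 1 and pos replicate 3 differently. IFIT3 had 5.66 to 6.83 CPM in neg, 6.07 in pos replicate 1 and 12.9 in pos replicate 3. IFIT2 had 4.65 to 5.59 CPM in neg, 5.10 in pos replicate 1 and 1.27 in pos replicate 3. IFIT5 had 22.3 to 23.3 CPM in neg, 33.2 in pos replicate 1 and 17.0 in pos replicate 3, so its 2 pos libraries lay on opposite sides of neg.

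The oligoadenylate synthetases make a small messenger that turns on the nuclease RNase L. OASL, a family member without that activity, had 5.87, 4.02 and 4.02 CPM in neg and 1.70 and 2.42 CPM in pos. Both pos libraries were below neg, at a log2 fold change of -1.18 (SE 0.36, edgeR adjusted p = 0.0810). OAS1 had 14.3, 14.6 and 9.73 CPM in neg and 11.7 and 17.9 in pos. OAS2 had 17 to 23 reads in neg and 2 and 12 in pos. Its log2 fold change of -1.14 (SE 0.78) was -3.16 without pos replicate 3 and -0.19 without pos replicate 1. OAS3 had 11.4 to 14.5 CPM in neg, 11.7 in pos replicate 1 and only 3.90 in pos replicate 3. Among the 10 effectors 4 were lower in both pos libraries without overlap (ADAR, EIF2AK2, IFIT1 and OASL) and none was higher in that way. Over all tested genes 29.3% were lower and 26.7% higher without overlap.

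Among membrane effectors, the IFITM proteins stop viruses from fusing with cell membranes. IFITM2 had 169, 157 and 129 CPM in neg and 239 and 614 CPM in pos, and IFITM3 had 81.0, 72.9 and 61.6 CPM in neg and 86.5 and 234 in pos. Both had pos libraries above neg, with pos replicate 3 far above pos replicate 1. Neither passed in edgeR (log2 fold change 1.49, adjusted p = 0.0652, and 1.15, adjusted p = 0.113), and both did in DESeq2 (adjusted p = 0.00429 and 0.0379). Removal of the length trend put them at 0.49 and -0.19. IFITM1 had only 2 to 6 reads in any library. Reads can be shared within this family, since 9.07% of the 50-base windows of the IFITM3 transcript occur unchanged in IFITM2 and 17.4% in IFITM1. The levels of single IFITM genes are therefore uncertain.

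BST2, or tetherin, holds budding virus at the cell surface. It had 9.79, 9.05 and 7.56 CPM in neg and 6.47 and 13.0 CPM in pos, on both sides of neg. The dynamin-like GTPases MX1 and MX2 trap viral nucleocapsids. MX1 had 4.68, 5.15 and 6.59 CPM in neg and 2.59 and 4.64 CPM in pos, and MX2 had 8.39, 7.23 and 7.31 CPM in neg and 5.83 and 6.96 in pos. Pos was below neg without overlap in both, by small amounts that did not pass (log2 fold change -0.61 and -0.26, edgeR adjusted p = 0.264 and 0.453).

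The cytosolic RNA sensors were at or below 17.0 CPM in every library. IFIH1, which encodes the sensor of long double-stranded RNA MDA5, had 10.8, 13.6 and 16.8 CPM in neg and 17.0 and 8.75 CPM in pos. DDX58, which encodes RIG-I, had 4.41, 6.04 and 6.11 CPM in neg and 5.58 and 3.06 CPM in pos. The groups overlapped for both, with log2 fold changes of -0.09 (SE 0.36) and -0.34 (SE 0.36). DHX58, the regulator LGP2, had 16, 9 and 7 reads in neg and 0 and 5 in pos, too few to be tested.

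Of the 5 interferon regulatory factors (IRFs) none passed in edgeR, with 2 higher and 3 lower in pos without overlap (over all tested genes 26.7% higher and 29.3% lower). IRF3, the factor that first switches on interferon genes, had 42.5, 36.8 and 32.0 CPM in neg and 49.4 and 89.1 CPM in pos. IRF2, which can repress ISRE promoters, had 15.3, 14.8 and 17.2 CPM in neg and 21.7 and 18.7 in pos. Both were higher without overlap, and neither passed (log2 fold change 0.90, edgeR adjusted p = 0.0963, and 0.36, edgeR adjusted p = 0.255). IRF7, itself interferon-induced, had 27.7, 21.7 and 17.3 CPM in neg and 8.09 and 16.7 CPM in pos. IRF9 had 14.9, 14.7 and 13.3 CPM in neg and 7.12 and 10.4 CPM in pos. IRF1, an activator induced by interferon gamma, had 71.8, 64.3 and 58.5 CPM in neg and 24.8 and 53.0 in pos. These 3 were lower without overlap, more so in pos replicate 1, and did not pass (log2 fold change -0.85, -0.71 and -0.74, edgeR adjusted p = 0.172, 0.111 and 0.187). After removal of the length trend IRF7 was at -1.27 (edgeR adjusted p = 0.0305) and IRF9 at -1.25 (edgeR adjusted p = 0.0153), both past the threshold.

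PARP9 and DTX3L encode partner proteins, a poly(ADP-ribose) polymerase family member and a ubiquitin ligase. Their starts are 239 bases apart on opposite strands of chromosome 3, so the annotated genes overlap by 240 bases. PARP9 had 12.4, 15.7 and 16.3 CPM in neg and 17.3 and 8.65 CPM in pos. DTX3L, whose transcript is longer (5768 against 3045 nt), had 41.8, 39.9 and 47.4 CPM in neg and 34.0 and 12.5 CPM in pos. Pos replicate 3 was the lowest library for both, while pos replicate 1 was the highest for PARP9 and below neg for DTX3L. PARP14, a larger relative, had 27.6 to 37.2 CPM in neg and 26.2 and 10.8 in pos. SAMD9, an antiviral factor that restrains poxviruses, had 65, 73 and 99 reads in neg, 47 in pos replicate 1 and 3 in pos replicate 3, so its log2 fold change of -1.41 (SE 0.82) rested on pos replicate 3. It was -0.60 without that library and -4.07 without pos replicate 1.

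IFI6, a small membrane protein that limits cell death, had 19.9, 16.2 and 11.8 CPM in neg and 23.8 and 52.2 CPM in pos. IFI35, a partner of the protein NMI, had 2.38, 2.01 and 1.85 CPM in neg and 3.80 and 9.17 in pos. Both were above neg in each pos library and passed in DESeq2 (adjusted p = 0.0233 and 0.0194) but not in edgeR (adjusted p = 0.0868 and 0.0637). Removal of the length trend took IFI6 from 1.25 to 0.14 (edgeR adjusted p = 0.640) and IFI35 from 1.63 to 0.77 (edgeR adjusted p = 0.108). XAF1, which promotes apoptosis, had 7, 12 and 13 reads in neg and 0 and 3 in pos. It entered the test through its neg reads, and its log2 fold change of -2.35 (SE 1.02, edgeR adjusted p = 0.162) depends on the small counts added by the fit. It was -6.40 without pos replicate 3 and -1.18 without pos replicate 1, the library with the fewest genes detected.

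Measurement failed or was weak for 9 of the 45. IFI44 and IFI44L had 0 reads in every library, which allows up to 0.189 to 0.316 CPM by library (3 reads, counting error only). HERC5, GBP1 and SAMD9L had at most 2 reads in any library, GBP3 at most 8, and IFITM1 and DHX58 the reads given above. IFI27 had 2, 2 and 1 reads in neg, 0 in pos replicate 1 and 13 in pos replicate 3, so it was seen above the floor in 1 library only. In the neg libraries, levels per kilobase of transcript ranked IFITM2 first at 151 ± 20.8 CPM per kb (SD, n = 3, as for the next values), then IFITM3 at 118 ± 15.9, ISG15 at 61.6 ± 13.5, TRIM25 at 37.4 ± 2.15 and ADAR at 29.4 ± 1.17. IRF3 (23.3 ± 3.30), IFI6 (19.6 ± 4.96) and IRF1 (18.3 ± 1.88) followed, with IRF3 above IFI6 and IRF1 in each neg library.

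Transcript length ordered these genes in pos replicate 3. The Spearman correlation between length and log2 ratio to the neg mean over the 36 tested genes was -0.86 for pos replicate 3 and -0.40 for pos replicate 1, described without a test since all points share a library. Length classes were set after the values were seen. Of the 7 tested genes shorter than 1500 nt, 6 (all but UBE2L6) lay above the neg mean in pos replicate 3, at a median log2 ratio of 1.74. All 15 longer than 3500 nt lay below it there, at a median of -1.21 and a range of -3.42 to -0.13. In pos replicate 1 the same medians were 0.28 and -0.33. Over all tested genes of the same classes the medians were 1.31 and -0.84 for pos replicate 3, and 0.41 and -0.17 for pos replicate 1. The 2 pos libraries gave ratios of opposite sign for 8 of the 36. Groups did not overlap for 23 of the 36, 8 higher and 15 lower, where 56.0% of all tested genes did not. The part of the length pattern in each gene's difference was not tested beyond the fit that removes it.

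**Figure D3:**
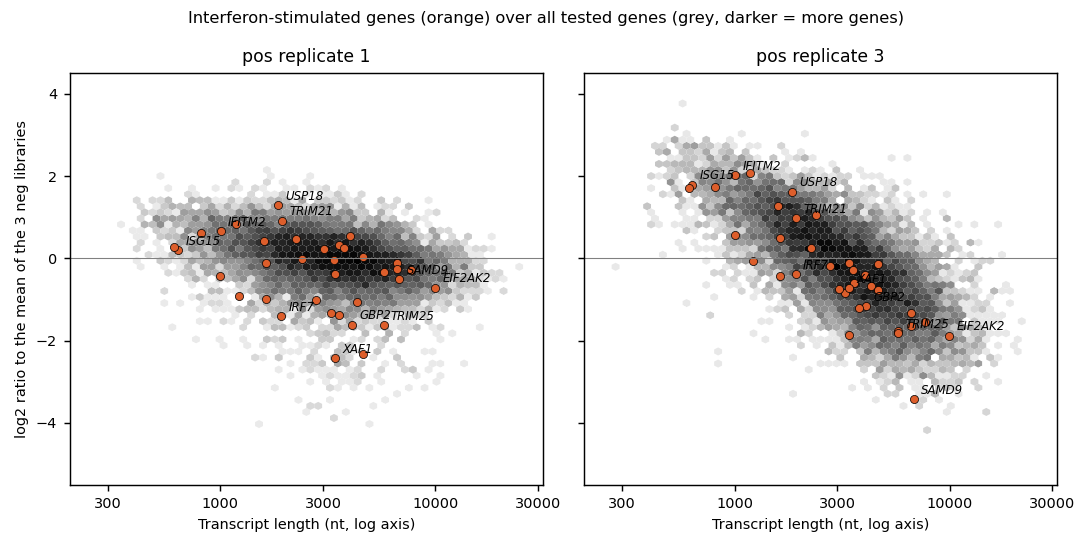
Log2 ratio of each pos library to the mean of the 3 neg libraries against transcript length (nt, log axis), with 2 counts added before taking logs. Orange points are the 36 tested interferon-stimulated genes and grey hexagons all tested genes, darker where more genes lie. In pos replicate 3 the points run from ISG15 and IFITM2 at the top left to SAMD9 and EIF2AK2 at the lower right (Spearman -0.86), while pos replicate 1 shows a weaker slope (-0.40).

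Once each library's length trend was removed, 5 of the 36 passed, all lower in pos. In that fit 14.0% of all tested genes passed, 7.37% higher and 6.65% lower. They were TRIM25, IRF7, IRF9, UBE2L6 (log2 fold change -1.24, SE 0.18, edgeR adjusted p = 0.0151) and BST2 (-0.81, SE 0.20, edgeR adjusted p = 0.0414). Only TRIM25 was shared with the 3 that passed without this step. BST2 and UBE2L6 are short transcripts whose groups overlapped in CPM, and BST2 had changed sign, from 0.14 to -0.81. USP18 stayed at 1.05 and did not pass (edgeR adjusted p = 0.0705). DESeq2, on counts without this step, called 9 of 38 with an adjusted p, 6 higher and 3 lower, against 21.0% of all genes (11.6% higher, 9.33% lower). They were the 3 edgeR calls with IFI6, IFI35, IFITM2, IFITM3, USP18 and EIF2AK2.

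**Figure D4:**
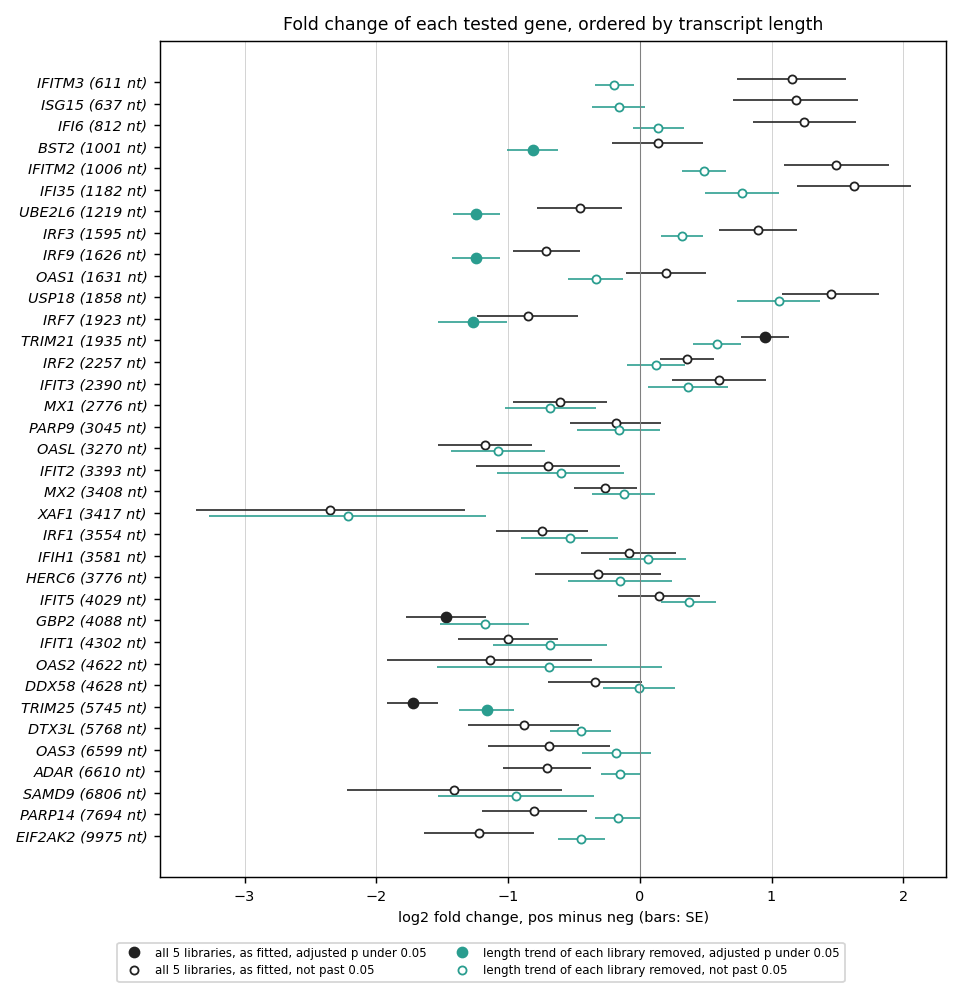
Log2 fold change of pos minus neg (bars: SE) for each tested interferon-stimulated gene, ordered from the shortest transcript at the top (length in nt beside the name). Black is the fit to all 5 libraries and green the fit with each library's length trend removed, and filled points pass an adjusted p of 0.05. In black, TRIM21 is filled above 0 and TRIM25 and GBP2 below 0, while in green the 5 filled points (TRIM25, IRF7, IRF9, UBE2L6 and BST2) are all below 0.

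Genes that act upstream in the pathway were described in the same way. Of 8 interferon genes, IFNA1, IFNB1, IFNG, IFNK and IFNL2 had 0 reads in every library, and IFNE, IFNL1 and IFNL3 at most 2. Of 41 ligand, receptor, kinase, adaptor, sensor, transcription factor and signalling regulator genes 27 were tested, and none passed in edgeR. An unadjusted p under 0.05 was found for 8 (29.6%), against 34.6% of all tested genes. DESeq2 called 6 (22.2%, against 21.0% of all genes), 1 higher (IFNGR2, adjusted p = 0.0191) and 5 lower, and limma-voom called 0. The median log2 fold change of the 27 was -0.35.

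STAT2, a subunit of the ISRE-binding complex, had 55.3, 51.4 and 55.5 CPM in neg and 60.5 and 48.2 in pos, a log2 fold change of 0.01 (SE 0.20). The kinase JAK1 had 186, 207 and 245 CPM in neg and 106 and 42.4 CPM in pos. Its log2 fold change was -1.52 (SE 0.42, edgeR adjusted p = 0.0677). Removal of the length trend gave -1.15, which passed (edgeR adjusted p = 0.0298). The receptor subunits IFNAR1 and IFNAR2 overlapped between groups (log2 fold change -0.29, SE 0.25, and -0.08, SE 0.20), as did the adaptor MAVS (-0.15, SE 0.21). The DNA sensor gene MB21D1, which encodes cGAS, had 1 read in all libraries together.

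Of 46 other interferon-induced genes 36 were tested. There 4 rose and 5 fell (25% in all, against 9.20% of all tested genes, 5.06% higher and 4.13% lower), at a median log2 fold change of -0.20. With the length trend removed 2 rose and 5 fell (19.4%, against 14.0% of all tested genes). With the replicate number as a block 1 passed (2.78%, against 0.64% of all tested genes). The list was chosen with earlier results of these data known, and it was not tested as a set. RSAD2, CMPK2, CXCL10, RTP4 and TRIM34 had 0 reads in every library. WARS, a tRNA synthetase, fell 5.36-fold (log2 fold change -2.42, SE 0.21, edgeR adjusted p = 0.0261). Those that fell also included the lipid-binding APOL6, from 16.6, 13.7 and 16.8 CPM in neg to 1.54 and 2.32 in pos (log2 fold change -3.03, SE 0.30, edgeR adjusted p = 0.0261). The capsid-binding TRIM5, a relative of TRIM21 and TRIM25, had 40.3, 38.3 and 44.4 CPM in neg and 13.3 and 12.7 in pos. Its log2 fold change was -1.66 (SE 0.20, edgeR adjusted p = 0.0302), and it was -1.54 after removal of the length trend. The helicase genes DDX60L (-3.14, from 5 and 3 pos reads) and HELZ2 (-1.88) made up the 5.

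The 4 that rose were B2M, PSMB8, TNFSF10 and CNP. PSMB8, an immunoproteasome subunit, had 27.8, 20.4 and 20.7 CPM in neg and 52.5 and 121 CPM in pos (log2 fold change 1.91, SE 0.38, edgeR adjusted p = 0.0420). B2M, the light chain of class I antigen-presenting molecules, had 231, 236 and 252 CPM in neg and 462 and 584 CPM in pos. The B2M log2 fold change was 1.13 (SE 0.19, edgeR adjusted p = 0.0381). It was 0.22 after removal of the length trend and then did not pass (edgeR adjusted p = 0.516). TNFSF10 did not pass in that fit either (0.89, edgeR adjusted p = 0.0656), while PSMB8 (1.02) and CNP (1.95) did. Scaled by library totals alone, 0 of the 36 rose and 5 fell (13.9%), against 148 and 458 of all tested genes (4.45%).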

How the data were processed

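RNA of 5 SW620 libraries was sequenced after TruSeq Stranded mRNA preparation, per the labels' protocols. The deposited values are raw read counts per gene, made by the authors. Per the submitters' processing notes the tools were CASAVA 1.8.2, STAR 2.5.2b and DESeq2 1.24.0. The notes name hg19 and the labels' protocol GRCh38. Which program counted reads, and whether it used strand, is not given in the sources used here, so reads of overlapping genes cannot be assigned with certainty. Coordinates and transcript lengths are those of GENCODE 44 (GRCh38) for each gene's canonical transcript, matched by symbol.

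Of 25435 rows, 92 were spike-ins and left out, and 6886 of the 25343 genes had no read. Genes kept by filterByExpr (minimum count 10, minimum total 15) numbered 13604, of which 97.5% had a length. Counts were fitted with edgeR 4.0.16 (TMM, quasi-likelihood test, R 4.3.3), 3 neg against 2 pos libraries, with Benjamini-Hochberg adjustment over all tested genes at 0.05. Log2 ratios of single libraries used a prior count of 2. Alternatives were other scalings, DESeq2 1.42.0, limma 3.58.1 (voom), other filters, each library left out, the replicate number as a block, and offsets that remove each library's lowess trend (span 0.3) on log2 transcript length. Counts were also simulated for this comparison with 13604 genes, without a length trend in any library. On them the test called 52 of the 100 genes given a 4-fold change and 1 of the 100 given a 2-fold change. It also called 1 gene left unchanged. The real pos replicate 3 followed transcript length, so these rates need not hold for the real counts.

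The genes and lists were chosen with earlier results of these data known. Every one of the 45 genes is accounted for. From the other lists the text names up to 6 genes past the threshold with the smallest p, and STAT2, IFNAR1, IFNAR2 and MAVS whatever their p. Another gene that this rule names is not reported here. The remaining names there (PSMB8, TNFSF10, CNP, JAK1, IFNGR2, MB21D1, the interferon genes and those with no read) were chosen after their values were seen. Protein sequences were not used here.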

Additional observations from a re-analysis of the deposited data

How the results depend on the processing

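Over the 36 tested interferon-stimulated genes, 568 fold changes were recomputed under other settings, of which 458 kept their direction and side of the threshold, 16 lost the call, 60 gained one and 34 changed sign. Of all tested genes 1251 passed as reported, 606 with library size only, 3042 with DESeq2, 1907 with the length trend removed (7249 and 5007 when pos replicates 1 and 3 were also left out), and 0 to 8819 with 1 library left out. The 3 interferon-stimulated genes that passed became 9 with DESeq2, 5 with the length trend removed (16 and 15 if pos replicate 1 or 3 was also left out), and 0 to 22 with 1 library left out. The 0 upstream genes became 6 with DESeq2, 1 with the length trend removed (17 and 11 if pos replicate 1 or 3 was also left out) and 0 to 16 with 1 library left out. The 9 other induced genes became 5 with library size only, 17 and 16 in the length fit without pos replicates 1 and 3, and 0 to 20 with 1 library left out. Among the fits with 1 library left out, the 0 counts all followed loss of a neg library. The high ones came from a lone pos library, whose spread is assumed to be that of neg. In each such fit the count over all tested genes rose as well, so a rise in a list is not specific to it. With all 5 libraries, DESeq2 called 23.7% of the interferon-stimulated genes with an adjusted p, against 21.0% of all genes. With the length trend removed the shares were 13.9% and 14.0%.

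Signs changed as follows, on the log2 scale. With library size only, IFIT5 was -0.16, OAS1 -0.23, IRF2 -0.0063 and BST2 -0.32. With the length trend removed, ISG15 was -0.16, IFITM3 -0.19, OAS1 -0.34, IFIH1 0.061 and BST2 -0.81. With 1 library left out at a time, the range was -0.057 to 1.10 for IFIT3, -0.37 to 0.52 for IFIT5, -0.17 to 0.52 for OAS1, -0.60 to 0.28 for IFIH1, -0.47 to 0.60 for BST2, -0.73 to 0.20 for PARP9 and -1.27 to 0.21 for HERC6. Pos replicate 1 gave one end of each and pos replicate 3 the other, and IFIH1 was also above 0 without neg replicate 3 (0.08). Where pos replicate 1 was left out and length adjusted for, IFITM3 was -0.022, MX2 0.10, OAS1 -0.30, OAS2 0.42, IRF1 0.0090, IRF2 -0.12 and BST2 -0.75. Where pos replicate 3 was left out and length adjusted for, ISG15 was -0.40, IFIT3 -0.12, IFITM3 -0.33, OAS1 -0.37, OAS3 0.10, DDX58 0.13, IFIH1 0.36, BST2 -0.87, PARP9 0.22 and HERC6 0.30. None of these genes passed the threshold as reported, and the cause was not tested.

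Replicate numbers 1 and 3 occur in both groups, but no label pairs them. Same-numbered libraries deviated from their group means with correlations of -0.44 for each number. With 2 pos libraries the pos deviations are equal and opposite, so these values cannot decide whether the numbers pair libraries. With the replicate number as a block, 87 of all tested genes passed, 0 of the interferon-stimulated genes, and 1 of the other induced genes. The 9 untested genes had at most 16 reads in any library.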
